A study of Mus musculus with 4 samples.

Results

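Heme is built by a chain of enzymes that starts and ends in the mitochondrion. The 9 genes described here are 8 enzymes of that chain (Alas1, Alas2, Alad, Uros, Urod, Cpox, Ppox and Fech) and Hebp1, a cytosolic protein that binds heme and porphyrins. They were chosen by name, and every probe set that the platform annotation assigns to exactly 1 of them was taken, which gave 20 of 45101 probe sets on the array, for 9 of 18193 named genes. The other step of the chain is not analysed here. Their intensities were read from Affymetrix arrays of sorted mouse bone marrow cells, 1 array for each of 4 groups: Fbw7-deficient LSK, wild-type LSK, Fbw7-deficient MP and wild-type MP. LSK cells lack lineage markers and carry Kit and Sca1, a gate that holds the blood stem cells and early multipotent progenitors. The MP gate takes myeloid progenitors, sorted with the same lineage and Kit gates but without Sca1, among them the progenitors of red cells. Fbw7, encoded by Fbxw7, is the substrate-binding subunit of an SCF ubiquitin ligase. All mice, wild-type and Fbw7-deficient, had been given 3 intraperitoneal polyI:C injections at 20 ug per g, and marrow was taken 2 weeks later. The labels used here give no strain, age or sex, and no driver of the deletion. Sorting started from pooled marrow, 3 mice to a genotype, so each array reads 1 pool, and both arrays of a genotype come from the same animals.

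The first and rate-setting step, the joining of glycine and succinyl-CoA to 5-aminolevulinate, is carried out by Alas1 in most cells and by Alas2 in the red cell lineage. Alas1 is held down by heme itself, whereas Alas2 is turned on by GATA1 during red cell formation and its messenger RNA is held by iron regulatory proteins when iron is short. Alad, Uros and Urod then act in the cytosol, Cpox and Ppox act in mitochondria, and Fech, ferrochelatase, inserts the iron. Developing red cells make most of the heme of the body for hemoglobin, and granulocyte progenitors also need it, for myeloperoxidase and the NADPH oxidase.

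The number of arrays limits the precision: without replicates there is no error to set a difference against and no test, and every difference stands between single arrays. The call is made at 2-fold in either direction, which is a difference of 1 on the log2 scale. The probe set with the highest mean on the log2 scale stands for its gene, and calls were made over the 12239 genes that read at least 157, the median over all arrays and probe sets, on 1 or more arrays. All 9 member genes passed that filter, with 18 of their 20 probe sets. Median intensities of the arrays ran from 155 to 159. Kit was bright on every array (4190.0 to 6723). Hlf, a marker gene of blood stem cells, read 1677 in Fbw7-deficient and 5515 in wild-type LSK, against 391 in Fbw7-deficient and 478 in wild-type MP. The gene for Sca1 is not analysed here. Fbxw7 read 1103 in Fbw7-deficient LSK and 1355 in wild-type LSK, and 958 in Fbw7-deficient MP and 691 in wild-type MP. The removed part of that gene is not stated in the labels used here, so its probe sets do not check the genotype. The wild-type LSK array stood apart in RNA quality: the Gapdh controls gave a 3' over 5' ratio of 4.30 there, against 2.60 to 2.95 on the other 3 arrays.

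The promoters of members that differ in their response are shown first, since the regulation of Alas2 by GATA1 is the textbook difference between the enzymes. RefSeq promoter windows on GRCm38.p6, from 250 bases before to 50 bases after a transcription start, were matched by symbol for 8 of the 9 genes, with 11 windows in all. They were searched on both strands for the GATA motif, spelled AGATAA, with T also allowed as its first letter and G as its last, and for CACCC, the core of the motif bound by KLF1 and related factors. In each line below the bases run 5′ to 3′ on the strand of the gene and end at the base before the start, and capitals mark a GATA motif, which here always lies on the opposite strand and so shows its reverse complement.
Alas2, chrX:150547287-150547416, plus strand: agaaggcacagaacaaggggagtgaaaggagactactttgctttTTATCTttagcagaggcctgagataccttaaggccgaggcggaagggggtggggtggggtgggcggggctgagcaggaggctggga
Cpox, chr16:58670078-58670207, plus strand: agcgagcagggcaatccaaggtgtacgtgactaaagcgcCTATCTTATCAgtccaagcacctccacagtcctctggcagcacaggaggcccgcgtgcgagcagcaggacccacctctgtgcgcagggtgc
Uros, inner of 2 starts, chr7:133702501-133702720, minus strand: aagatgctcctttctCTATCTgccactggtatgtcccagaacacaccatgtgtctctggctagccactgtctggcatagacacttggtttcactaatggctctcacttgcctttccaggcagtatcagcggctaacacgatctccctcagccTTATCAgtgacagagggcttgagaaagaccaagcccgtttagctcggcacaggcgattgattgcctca
Alas1, chr9:106247955-106248084, minus strand: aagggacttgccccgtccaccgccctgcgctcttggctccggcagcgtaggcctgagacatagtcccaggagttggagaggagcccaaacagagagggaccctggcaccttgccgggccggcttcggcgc
The Alas2 window held 1 GATA motif, which begins 86 bases before the start, and 3 CACCC motifs, which begin 40, 35 and 30 bases before it. Cpox held 3 GATA motifs. Of these, 2 overlap by 1 base and begin 91 and 86 bases before the start, and the other begins at base 5 of the transcript. The inner start of Uros, the one shown, had GATA motifs beginning 205 and 68 bases before it, whereas the outer start of Uros had none. Neither of the 2 Alas1 windows held a GATA motif, nor did those of Alad, Urod, Ppox and Hebp1. In all, 3 of 11 member windows (27.3%) held a GATA motif, against 29.8% of 32851 windows of all genes, and 7 of 11 (63.6%) held CACCC, against 57.5% of all. Both shares are near those of all windows. These matches are letters in a window and not shown sites.

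In Fbw7-deficient LSK cells all 9 genes read higher than in wild-type LSK cells, and 5 of them, Alas2, Alas1, Cpox, Hebp1 and Fech, were at least 2-fold higher. None was lower. Over all 12239 genes 1.79% were at least 2-fold higher in this comparison, 1.95% were at least 2-fold lower and 50.7% read above 0. The median log2 difference was 1.03 over the 9 members, against 0.00 over all genes. Fewer cells of a type and less RNA per cell cannot be told apart in these sorted bulk samples. By representing probe set, every member was lowest on the wild-type LSK array. That was the array with the Gapdh ratio of 4.30, and its part in these differences was not tested.

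**Figure D1:**
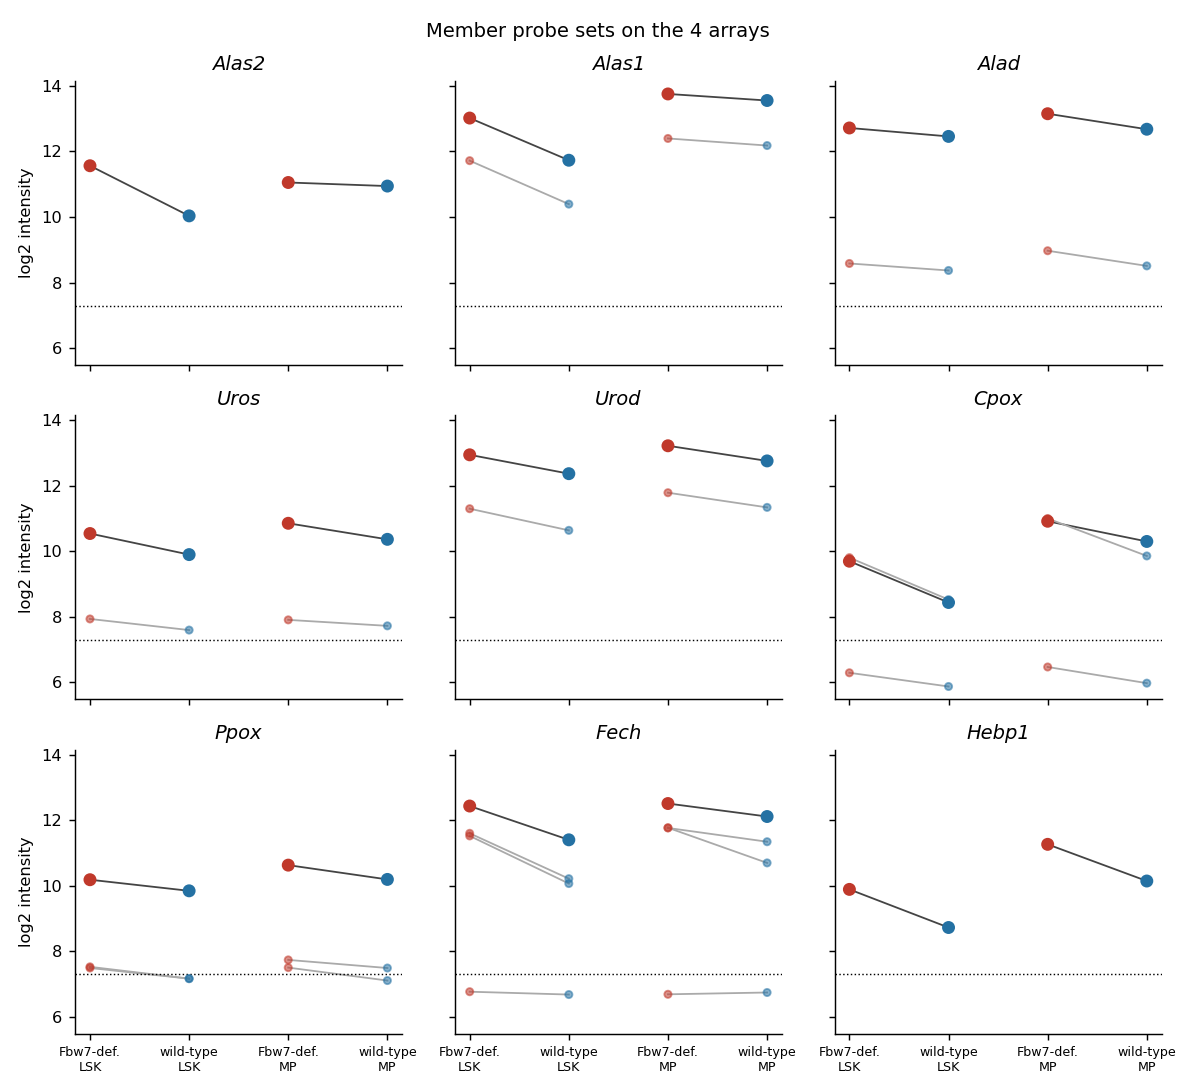
Log2 intensity (vertical axis) of each of the 20 probe sets on the 4 arrays, with 1 panel per gene, Fbw7-deficient arrays in red and wild-type arrays in blue. Large points and dark lines are the probe set that represents the gene, small points and grey lines its other probe sets, and the dotted line is the level filter of 157. Wild-type LSK is the lowest array for all 9 genes on the large points, and the probe sets below the dotted line on every array are 1 each of Cpox and Fech.

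Alas2, the erythroid enzyme of the first step, had the largest genotype difference of the 9 in LSK. Its single probe set read 3028 in Fbw7-deficient LSK and 1048 in wild-type LSK, and 2124 in Fbw7-deficient MP and 1970.1 in wild-type MP. It was 2.89-fold higher in Fbw7-deficient LSK (log2 1.53), a difference that 0.735% of all genes reached, and 1.08-fold higher in Fbw7-deficient MP (log2 0.11). By representing probe set, Alas2 was the only member brightest on the Fbw7-deficient LSK array, and there it lay above both MP arrays. The gene lies on chromosome X (GRCm38.p6, 150547417 to 150570622).

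Alas1, the housekeeping enzyme of the same step on chromosome 9 (106233455 to 106247954), read 8306 in Fbw7-deficient LSK and 3403 in wild-type LSK, and 13834 in Fbw7-deficient MP and 12040.1 in wild-type MP. The LSK difference was 2.44-fold (log2 1.29) and the MP difference 1.15-fold (log2 0.20). Its other probe set, whose ID carries the mark for possible cross-reaction, gave log2 1.33 and 0.22. Unlike Alas2, Alas1 stayed below both MP arrays in Fbw7-deficient LSK, and both of its probe sets ordered the 4 arrays in the same way. Both forms of the enzyme therefore had a genotype difference past 2-fold in LSK and under 1.2-fold in MP.

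The cytosolic enzymes Alad, Uros and Urod had smaller differences in LSK, and none reached 2-fold in either population. Alad, on chromosome 4 (62505984 to 62520063), condenses aminolevulinate to porphobilinogen. It read 6735 in Fbw7-deficient LSK and 5633 in wild-type LSK, and 9102 in Fbw7-deficient MP and 6556 in wild-type MP. Its log2 difference was 0.26 in LSK and 0.47 in MP, and its dimmer probe set gave 0.21 and 0.46. Uros, uroporphyrinogen III synthase on chromosome 7 (133686142 to 133710467), read 1492 in Fbw7-deficient LSK and 956 in wild-type LSK, and 1853 in Fbw7-deficient MP and 1319.5 in wild-type MP. The log2 differences of Uros were 0.64 in LSK and 0.49 in MP, or 0.34 and 0.18 on a probe set that read only 194 to 245. Urod, which removes carboxyl groups from uroporphyrinogen and lies on chromosome 4 (116989965 to 116994436), read 7889 in Fbw7-deficient LSK and 5295 in wild-type LSK, and 9553 in Fbw7-deficient MP and 6936 in wild-type MP. Its log2 differences were 0.58 and 0.46, and 0.66 and 0.45 on the other probe set. The ID of the brighter Urod probe set carries the mark for possible cross-reaction. All 3 genes ordered the arrays alike on their brighter probe sets, with Fbw7-deficient MP highest, then Fbw7-deficient LSK, wild-type MP and wild-type LSK.

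The mitochondrial enzymes were unequal. Cpox, coproporphyrinogen oxidase on chromosome 16 (58670208 to 58680391), read 831 in Fbw7-deficient LSK and 347 in wild-type LSK, and 1935 in Fbw7-deficient MP and 1262 in wild-type MP. That is 2.39-fold higher in LSK (log2 1.26) and 1.53-fold higher in MP (log2 0.62). A nearly as bright probe set of Cpox read 896 in Fbw7-deficient LSK and 369 in wild-type LSK, and 2051 in Fbw7-deficient MP and 929 in wild-type MP. On it the log2 differences were 1.28 in LSK and 1.14 in MP, so the MP difference of Cpox passed 2-fold on that probe set and not on the brighter. Its remaining probe set stayed at 58.7 to 88.6, below the level filter on all 4 arrays.

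Ppox, protoporphyrinogen oxidase on chromosome 1 (171276991 to 171281193), read 1161 in Fbw7-deficient LSK and 918 in wild-type LSK, and 1581 in Fbw7-deficient MP and 1168 in wild-type MP. Its log2 differences of 0.34 in LSK and 0.44 in MP were well under 2-fold, and the other 2 probe sets, at 138 to 213, gave 0.36 in LSK with 0.25 in MP, and 0.33 in LSK with 0.40 in MP. Ppox thus differed less in LSK than the enzymes on either side of it in the chain, Cpox and Fech.

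Fech, on chromosome 18 (64456542 to 64489098), had 4 probe sets. The brightest read 5520.3 in Fbw7-deficient LSK and 2701 in wild-type LSK, and 5821 in Fbw7-deficient MP and 4422 in wild-type MP. It was 2.04-fold higher in LSK (log2 1.03), just past the call, and 1.32-fold higher in MP (log2 0.40). Its ID carries the _s_at mark, for probe sets not unique to 1 transcript. The next probe set read 3099 in Fbw7-deficient LSK and 1187 in wild-type LSK, and 3471 in Fbw7-deficient MP and 2594 in wild-type MP, which is log2 1.38 and 0.42. The remaining bright probe set read 2933 in Fbw7-deficient LSK and 1071 in wild-type LSK, and 3488 in Fbw7-deficient MP and 1657 in wild-type MP. Its log2 differences were 1.45 and 1.07, so all 3 bright probe sets of Fech passed 2-fold in LSK and 1 of them in MP. The fourth stayed at 102 to 109, below the filter, with log2 differences of 0.09 and -0.05.

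Hebp1, the heme-binding protein gene on chromosome 6 (135137519 to 135168215), was the only member past 2-fold in both populations by representing probe set; Cpox and Fech each passed in both on 1 other probe set. Its single probe set read 946 in Fbw7-deficient LSK and 422 in wild-type LSK, and 2454 in Fbw7-deficient MP and 1129.7 in wild-type MP. The differences were 2.24-fold in LSK (log2 1.16) and 2.17-fold in MP (log2 1.12). Nearly the same ratio therefore stood in both pairs of arrays.

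**Figure D2:**
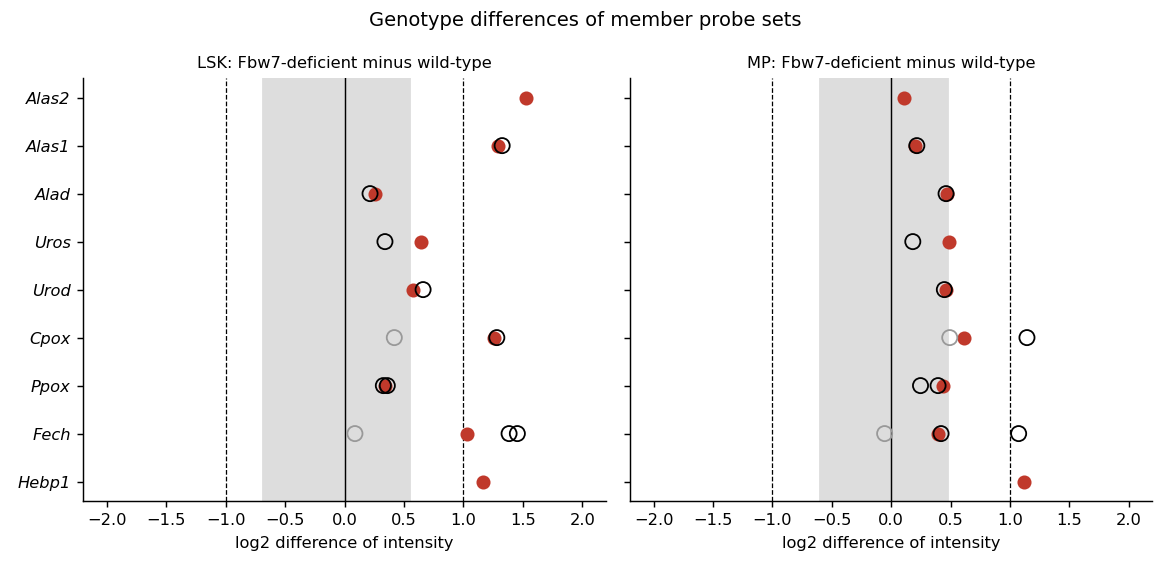
Log2 difference of Fbw7-deficient minus wild-type (horizontal axis) in LSK on the left and MP on the right, with 1 row per gene. Filled points are the representing probe set, black circles other probe sets above the level filter and grey circles those below it. The grey band spans the 5th to 95th percentile of all 12239 genes (-0.69 to 0.55 in LSK, -0.60 to 0.48 in MP), and dashed lines mark 2-fold. In LSK 5 filled points lie beyond 2-fold, and in MP only that of Hebp1.

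In MP cells the genotype comparison thus gave 1 of 9 genes at least 2-fold higher and none lower, against 0.825% of all genes higher and 1.49% lower. All 9 read above 0, as did 49.6% of all genes, and the median was log2 0.46, against -0.0024 over all genes. Over probe sets that passed the filter, 9 of 18 were at least 2-fold higher in LSK, against 1.51% of 20887 such probe sets, and 3 of 18 in MP, against 0.723%. Of all 20 probe sets, 19 were above 0 in both comparisons, and the exception was the dim one of Fech. The share of all probe sets above 0 in both was not computed. These 20 are repeated readings of 9 genes on the same arrays, not separate support.

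By representing probe set, the genotype difference was larger in LSK than in MP for 7 of 9 genes and smaller for Alad and Ppox. Over all genes the median difference between the LSK and MP values was log2 0.00. The difference between the LSK and MP values was log2 1.42 for Alas2, which 0.948% of all genes reached, and 1.09 for Alas1. For Cpox and Fech it was 0.64 and 0.63. It was 0.15 for Uros, 0.11 for Urod and 0.04 for Hebp1, and -0.10 for Ppox and -0.22 for Alad. On the second Cpox probe set it was 0.14, and on the other bright Fech probe sets 0.96 and 0.38. On the dimmer Ppox probe sets it was 0.11 and -0.07, so for Ppox the sign depends on the probe set. The values for Cpox and Fech also depend on the probe set. The gap between populations was thus widest for the pair of aminolevulinate synthases. With 1 array per group these gaps have no error.

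LSK and MP cells were also compared within each genotype. These comparisons share their arrays with those between genotypes, so their values are given side by side and not as separate support. In wild-type cells all 9 genes were lower in LSK than in MP by representing probe set, as were 6364 of all 12239 genes. Of the 9, 3 were at least 2-fold lower, against 2.4% of all genes. These were Cpox (log2 -1.86, with -1.33 on its second probe set), Alas1 (-1.82) and Hebp1 (-1.42). Fech was at -0.71, with -1.13 and -0.63 on its other bright probe sets, so it passed 2-fold on 1 of 3. The dimmest Ppox probe set above the filter was higher in LSK, at 0.0575. The median of the 9 was -0.71, against -0.02 over all genes. In Fbw7-deficient cells 2 of 9 were at least 2-fold lower in LSK than in MP, against 1.63% of all genes. These were Hebp1 (log2 -1.38) and Cpox (-1.22), while Alas1 was at -0.74. The median was -0.43, against 0.01 over all genes.

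Alas2 had opposite signs in the 2 genotypes: LSK was higher than MP by log2 0.51 in Fbw7-deficient cells and lower than MP, at log2 -0.91, in wild-type cells. Fech was at -0.08 in Fbw7-deficient and -0.71 in wild-type cells, so its LSK and MP levels lay closer in the Fbw7-deficient pool. By representing probe set, Alad and Ppox had slightly wider gaps in Fbw7-deficient than in wild-type cells (log2 -0.43 against -0.22 for Alad, and -0.45 against -0.35 for Ppox). On a dimmer Ppox probe set the gap was narrower in Fbw7-deficient cells, at -0.21 against -0.32. Set against the wild-type MP array, Fbw7-deficient LSK read higher for 5 of 9 genes, by log2 0.62 for Alas2, 0.32 for Fech, 0.19 for Urod, 0.18 for Uros and 0.04 for Alad. It read lower for Cpox (-0.60), Alas1 (-0.54), Hebp1 (-0.26) and Ppox (-0.01). For Urod the other probe set gave -0.04, and for Ppox the other 2 gave 0.04 and 0.38, so the signs for these genes depend on the probe set. The Fbw7-deficient MP array was the highest for 8 of 9 genes.

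**Figure D3:**
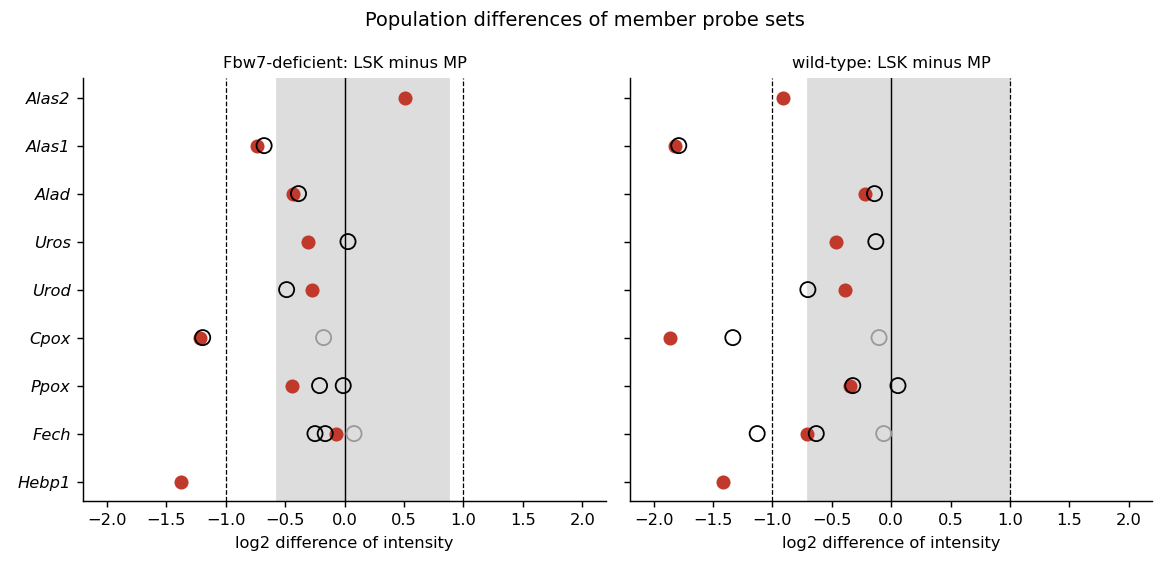
Log2 difference of LSK minus MP (horizontal axis) in Fbw7-deficient cells on the left and wild-type cells on the right, with 1 row per gene and symbols, band and dashed lines as in the plot of genotype differences. The band runs from -0.57 to 0.88 in Fbw7-deficient and from -0.70 to 1.004 in wild-type cells. The filled point of Alas2 lies right of 0 in Fbw7-deficient and left of 0 in wild-type cells, and the other 8 lie left of 0 in both.

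Genes that supply the pathway, genes that handle or use its product and genes of the red cell lineage were taken from 6 lists. Their counts stand beside the shares over all genes. Those were 1.79% at least 2-fold higher and 1.95% lower in Fbw7-deficient LSK, and 0.825% and 1.49% in Fbw7-deficient MP. Of 19 measured genes of mitochondrial and metabolite supply, 2 were at least 2-fold higher in Fbw7-deficient LSK, none was lower and the median was log2 0.38. In MP none passed 2-fold either way and the median was 0.10. Slc25a37, mitoferrin, which brings iron into the mitochondria of red cell precursors, read 5375 in Fbw7-deficient LSK and 2078 in wild-type LSK, and 4097 in Fbw7-deficient MP and 3311 in wild-type MP. Its log2 differences of 1.37 in LSK and 0.31 in MP lay near those of Alas2 (1.53 and 0.11). Abcb6, a porphyrin transporter, was at 1.03 and 0.61. Tmem14c, which moves porphyrin across the inner mitochondrial membrane, was at 0.75 in LSK and -0.24 in MP. The carrier gene Slc25a39 was at 0.58 and 0.06 on a probe set marked for possible cross-reaction, with 1 of its other 4 probe sets at -0.17 in LSK.

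Of 16 genes of iron import, storage and heme export or breakdown, 3 were at least 2-fold higher in Fbw7-deficient LSK and 2 in MP, none was lower in either, and the medians were 0.08 and 0.45. The iron exporter ferroportin, Slc40a1, read 1435 in Fbw7-deficient and 467 in wild-type LSK (log2 1.62), and its MP difference was 1.03. Its other probe set gave 1.44 in LSK and 0.77 in MP, so there it did not pass 2-fold in MP. Blvrb, a biliverdin reductase abundant in red cells, was at 1.33 in LSK and 1.08 in MP. The transferrin receptor gene Tfrc was at 1.19 and 0.48, with 0.92 and 1.15 in LSK on other probe sets. Tfrc is also counted in the list of erythroid membrane and surface genes. Hmox1, the inducible heme oxygenase that breaks heme down, read 328 in Fbw7-deficient and 194 in wild-type LSK (log2 0.76), and was at 0.48 in MP. By representing probe set, an exporter, an importer and a breakdown gene were thus the 3 past 2-fold in LSK.

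The globin list could hardly be read: of 10 listed genes 6 have a probe set that names them alone, and 2 of these passed the filter. Probe sets that name several globin genes were not used. Hbb-b2 was at log2 0.97 in LSK and 0.62 in MP on a probe set marked for possible cross-reaction, with 0.09 in LSK on its other probe set, and Hba-a2, at 139 to 221, was at -0.43 and -0.17. Neither passed 2-fold. The list of 20 erythroid transcription regulators also holds the receptor gene Epor and the kinase gene Jak2. Of these 20, 1 was at least 2-fold higher in LSK, none lower, and the median was -0.17. In MP 1 was higher, none lower, and the median was 0.20. Klf1, a factor that activates globin and heme synthesis genes, was the one in LSK, with 3035 in Fbw7-deficient and 1014 in wild-type LSK (log2 1.58). Its MP difference was 0.996, just under the call. Gata2, Jak2 and Stat5a were at -0.89, -0.62 and -0.60 in LSK. Gata1, named after its values were seen because it regulates Alas2, read 1784 in Fbw7-deficient LSK and 1528 in wild-type LSK, and 5992 in Fbw7-deficient MP and 3929 in wild-type MP. Its log2 differences were 0.22 in LSK and 0.61 in MP. The part of Gata1 in the Alas2 values was not tested.

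Of 15 erythroid membrane and surface genes, 10 were at least 2-fold higher in Fbw7-deficient LSK and 3 in Fbw7-deficient MP, none was lower in either, and all 15 read above 0 in both. The medians were 1.24 and 0.78. By representing probe set, the largest LSK differences were those of Epb42 (log2 3.77), Slc4a1 (3.12), Rhag (3.08) and Rhd (2.67). On these probe sets each was larger than that of any heme synthesis gene. Epb42 and Rhag read 60.7 and 101 in wild-type LSK, below the level filter of 157, so the sizes of their differences are uncertain. The other probe set of Epb42 gave 0.82, less than the 1.53 of Alas2. The Slc4a1 probe set is marked for possible cross-reaction, and another gave 3.11. The summed intensity of the list was 49559 in Fbw7-deficient LSK and 22788 in wild-type LSK, and 92983 in Fbw7-deficient MP and 62496 in wild-type MP. The lowest value in the list was the 60.7 of Epb42 in wild-type LSK, near the lower quartile of that array (59.9). Genes of mature neutrophils and macrophages also moved with the LSK result: 8 of 11 were at least 2-fold higher in Fbw7-deficient LSK, none was lower, and their summed intensity was 126552 in Fbw7-deficient LSK and 61033 in wild-type LSK, and 101734 in Fbw7-deficient MP and 94181 in wild-type MP. The part of red cell precursors or of neutrophils in the gate in the heme synthesis differences was not tested. Of 15 genes of other heme proteins and their partner enzymes, 1 was 2-fold higher in each population and none lower. The medians were 0.13 in LSK and 0.08 in MP. The NADPH oxidase gene Cybb was at 1.89 in LSK and -0.21 in MP, Cyba at 0.57 and -0.16, the respiratory cytochrome gene Cyc1 at 0.45 and 0.34, and the eosinophil peroxidase gene Epx at -0.44 and 1.39.

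**Figure D4:**
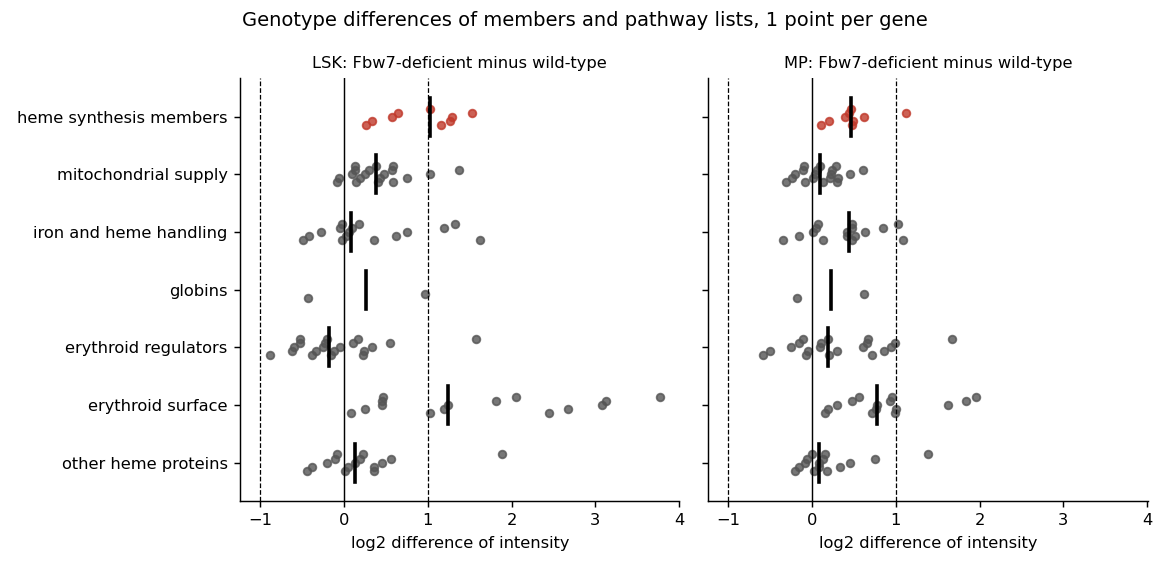
Log2 difference of Fbw7-deficient minus wild-type (horizontal axis) for each gene of the 9 members (red) and of the 6 lists (grey) in LSK on the left and MP on the right. Thick bars are medians and dashed lines mark 2-fold. The bar of the members stands at 1.03 in LSK and 0.46 in MP, and that of the erythroid surface genes at 1.24 and 0.78.

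The genes whose profile was most like that of a member were found by the Euclidean distance between log2 profiles over the 4 arrays, each less its own mean. Nearest to Alas2 was Ltf, lactoferrin, a secondary granule gene of neutrophils, at a distance of 0.12. It read 15133 in Fbw7-deficient LSK and 4904 in wild-type LSK, and 9563 in Fbw7-deficient MP and 8866 in wild-type MP. Next were Slc25a37 (0.19), Itgb2l (0.22), Ceacam1 (0.22) and Slfn2 (0.22). Among the other members Fech was the closest to Alas2, in place 32, and Hebp1 the farthest, in place 9657. Nearest to Alas1 were Gla, the lysosomal alpha-galactosidase gene (0.07), Chd7 (0.13), the coagulation factor gene F10 (0.13), Cst7 (0.16) and Stom (0.17), with Cpox in place 30 and Alas2 in place 738. The 2 aminolevulinate synthase genes were 1.10 apart. With 4 arrays many genes lie close to any profile, so these names are a description of the arrays.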

How the data were processed

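RNA of 4 sorted marrow populations was measured on 1 Affymetrix array each. Biotin-labelled cRNA was made from 20 ng of RNA by 2-cycle synthesis, per the labels' protocols. Each deposited value is the linear intensity of a probe set, made by the authors with RMA, per the submitters' processing notes; its settings are not stated there. RMA evens out array distributions, so a change common to most genes is lost. Values were taken to log2 here with Python 3.11.15, numpy 2.4.6 and pandas 2.3.3. Of 45101 probe sets, 34945 name 1 gene, 932 several and 9224 none, controls included. Symbols of 34741 were updated by gene ID through a RefSeq table of GRCm38.p6. Probe sets with several genes were not used. Groups come from the sample titles. Differences were called at 2-fold, without a test. A run on simulated data, with shifts set past the cutoff, checked the code only and gives no error for these calls. Alternatives were the mean of all probe sets, leaving out probe sets marked as not unique to 1 transcript (_x_at, _s_at, _a_at), a floor, quantile normalization, a pseudocount of 50, another filter and a 1.5-fold call. All 9 members were named, with up to 4 genes per pathway list by LSK difference and the 5 nearest profiles to Alas2 and to the other member with the largest LSK difference. Members and lists were chosen with earlier results of these data known.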

Additional observations from a re-analysis of the deposited data

Results flagged for a closer look

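Alas2 had LSK minus MP differences of opposite sign in the 2 genotypes, log2 0.51 in Fbw7-deficient and -0.91 in wild-type cells, each from 1 pair of arrays, and this difference was not tested. The dim probe set of Uros, at 194 to 245, also had opposite signs, at 0.0283 in Fbw7-deficient and -0.13 in wild-type cells. The dimmest Ppox probe set above the filter had -0.0119 in Fbw7-deficient and 0.0575 in wild-type cells. Neither difference was tested, and the brighter probe sets of Uros and Ppox had the same sign in both genotypes.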

How the results depend on the processing

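No paired analysis was possible because each group has 1 array, and no replicate could be left out. With the mean of all probe sets, dim ones included, 3 members were 2-fold higher in Fbw7-deficient LSK in place of 5 (Cpox at log2 0.99 and Fech at 0.99), and 1 in place of 2 was 2-fold lower in Fbw7-deficient LSK than in MP, while Cpox in wild-type LSK minus MP was at -1.10 in place of -1.86. That setting kept 10924 genes in place of 12239. Of all these, 1.59% were 2-fold higher in Fbw7-deficient LSK, and 1.4% were lower in Fbw7-deficient LSK than in Fbw7-deficient MP. Over all genes it gave 133 in place of 239 lower in Fbw7-deficient LSK. In Fbw7-deficient MP it gave 67 in place of 101 higher and 104 in place of 182 lower. In wild-type LSK 386 in place of 618 were higher than in MP. Without _x_at, _s_at and _a_at probe sets Alas2, whose only probe set has the _a_at mark for several transcripts of a gene, has no value. There 2 members in place of 1 were 2-fold higher in Fbw7-deficient MP, with Fech at 1.07, against 0.81% of all genes. At 1.5-fold the MP count was 2, against 2.97% of all genes, and 5 in place of 3 were lower in wild-type LSK than in MP, against 6.91%. The other 75 of 80 counts and medians stayed within 1.5 times the reported value, among them counts of 0 that stayed at 0. No member's 2-fold difference changed sign in 212 recomputed values, and 5 of these moved across the 2-fold call or by over 1.5 times. The floor and the other filter, with 36 of these values each, could not change any of them. Every representing probe set read above 157 on all arrays. Medians of the members ran from 0.91 to 1.04 in LSK and from 0.45 to 0.49 in MP between genotypes. Values near or below 157 are not shown to be above background.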

Other observations

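Markers of other cell types were read on the same arrays. Epx and Mpo are each also in the list of other heme proteins. Over all genes 1.79% were at least 2-fold higher and 1.95% lower in Fbw7-deficient LSK, and 0.825% and 1.49% in Fbw7-deficient MP. Of 12 stem cell genes, 7 were at least 2-fold lower and none higher in Fbw7-deficient LSK, and 2 were lower in Fbw7-deficient MP. Among the 7 is Eya2, which read only 59.1 in Fbw7-deficient and 186 in wild-type LSK. Of 10 megakaryocyte and platelet genes, 4 were lower in LSK and 2 in MP, and none was higher. Of 11 neutrophil and monocyte progenitor genes, 5 were higher and none lower in LSK, while 2 were lower and none higher in MP. Of 11 genes of mature neutrophils and macrophages, the median was log2 1.41 in LSK and 0.01 in MP, and none passed 2-fold in MP. Of 11 early lymphoid and B cell genes, 3 were higher and none lower in LSK, and 6 were lower and none higher in MP. Of 9 mast cell, basophil and eosinophil genes, 1 was higher and 1 lower in LSK, and 2 were higher and 1 lower in MP. Other calls also rest on a value below 157, such as Ebf1 in wild-type LSK (94.8) and Fcer1a in wild-type MP (111).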
